A study of Mus musculus with 6 samples.

Results

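The MHC class II presentation genes are the 10 genes H2-Aa, H2-Ab1, H2-Eb1, H2-DMa, H2-DMb1, H2-DMb2, H2-Oa, H2-Ob, Cd74 and Ciita, chosen by name from the gene symbols of the deposited count table, in which they are 10 of 46603 genes. They were measured by RNA-Seq in CD11B+ cells that were taken with magnetic beads from the digested kidneys of male mice aged 10 to 12 weeks, on day 3 after both renal pedicles had been clamped for 28 minutes (bilateral ischemia-reperfusion injury AKI, IRI-AKI). The 3 libraries of PTEC DN RAR mice had the genotype PEPCK CRE+ with Rosa26-LSL-RARaT403X, in which Cre under the PEPCK promoter of proximal tubular epithelial cells (PTECs) removes a stop cassette in front of a truncated, dominant negative RARα. The 3 libraries of Cre- control mice had the genotype PEPCK CRE- with the same Rosa26-LSL-RARaT403X allele, so both groups carried the transgene allele and both were injured. Uninjured kidneys were not analysed here. The study's text describes PTEC DN RAR animals as homozygous for this allele. Whether a library held cells of 1 mouse or of several is not given in the sources used here, so p values measure the spread between these libraries, which may in part be technical. The Cre is directed at PTECs, which are not the cells that were sequenced, and recombination in the CD11B+ cells was not measured here.

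MHC class II molecules are pairs of an alpha and a beta chain that antigen presenting cells such as macrophages, dendritic cells and B cells load with peptides from engulfed proteins and show to CD4+ T cells. The invariant chain holds new class II molecules and leads them to endosomes, where proteases cut it down to a small fragment that H2-DM exchanges for peptide, under the brake of H2-O. Class II genes are switched on together by CIITA, a coactivator that has no DNA binding of its own and is held at their promoters by the RFX, CREB and NF-Y factors on sequences named the X and Y boxes. In the kidney, resident macrophages are known for abundant class II.

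Transcripts of the class II chains H2-Aa, H2-Ab1 and H2-Eb1 and of the invariant chain gene Cd74 were 1.93-fold to 2.14-fold as high in CD11B+ cells of PTEC DN RAR mice as in those of Cre- control mice, on the CPM scale (gene counts divided by the library's TMM-adjusted size). Ciita was 1.71-fold higher, H2-Ob 1.66-fold, H2-DMb1 1.48-fold and H2-DMa 1.39-fold. Of the 10 genes, 8 were higher and 0 lower at a Benjamini-Hochberg adjusted p under 0.05 over all tested genes in edgeR's quasi-likelihood test, against 23.6% of the 15440 tested genes that were higher and 17.2% that were lower. All 10 passed the filter on low counts. The same 8 had no overlap between the 3 libraries of each genotype, which held in the same direction for 29.2% of tested genes. The median log2 fold change was 0.75 over the 10 genes and 0.04 over all tested genes. H2-DMb2 and H2-Oa did not pass.

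**Figure D1:**
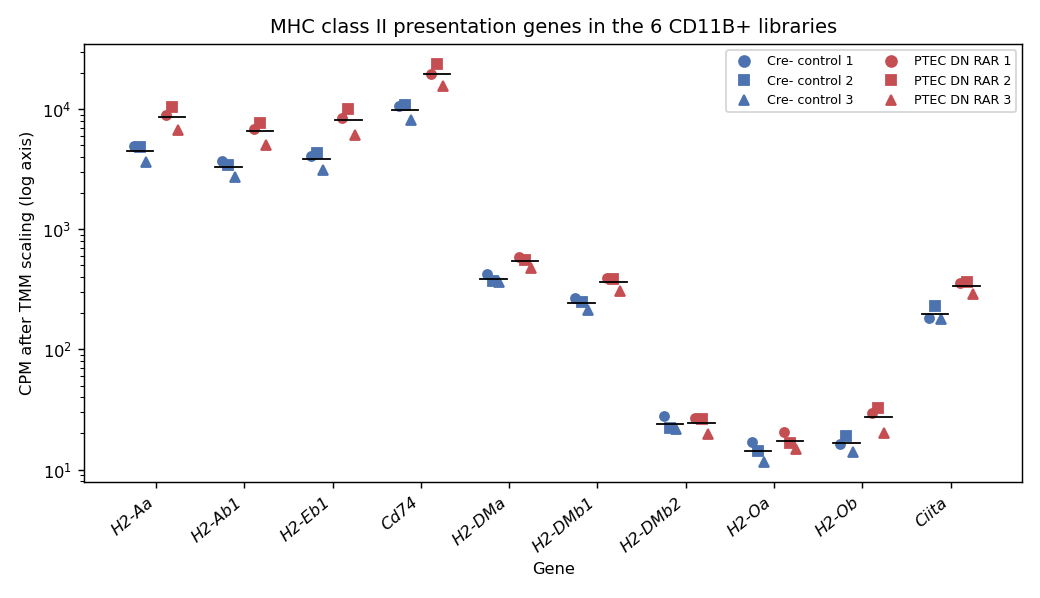
CPM after TMM scaling (log axis) of the 10 genes in each of the 6 libraries, with blue symbols for Cre- control mice, red symbols for PTEC DN RAR mice, one symbol shape per replicate number and a black line at each group mean (n = 3). The red symbols lie above all blue ones for 8 genes and overlap them for H2-DMb2 and H2-Oa.

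Together the 10 genes took 2.32%, 2.47% and 1.87% of all gene counts in Cre- control libraries 1, 2 and 3, and 4.49%, 5.28% and 3.49% in PTEC DN RAR libraries 1, 2 and 3. The mean was 2.22% ± 0.31 in Cre- control mice and 4.42% ± 0.90 in PTEC DN RAR mice (mean ± SD over 3 libraries each). The 95% Wilson interval of any 1 library reached no further than 0.0067 percentage points from its value, which reflects counting error alone because reads without molecular identifiers are not separate molecules. In bulk RNA, more cells of a type that expresses class II and more class II RNA per cell cannot be told apart.

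Of the 7 members that have an entry among the RefSeq promoter windows of GRCm38.p6, 6 carry the letters AAC followed 26 to 29 bases later by TGATTGG, the spacing and the inverted CCAAT letters of an X and a Y box. The windows run from 250 bases before to 50 bases after a start site. The stretches that hold the pair are shown because CIITA is known to work through these boxes, each from 5′ to 3′ on the strand of its gene with the AAC and the TGATTGG in capitals.
H2-Aa: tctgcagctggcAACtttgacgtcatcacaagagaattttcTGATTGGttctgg
H2-Eb1: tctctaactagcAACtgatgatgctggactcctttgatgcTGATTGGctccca
H2-DMb1: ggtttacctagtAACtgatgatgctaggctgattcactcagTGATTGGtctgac
H2-DMb2: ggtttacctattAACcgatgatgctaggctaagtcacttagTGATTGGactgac
H2-Oa: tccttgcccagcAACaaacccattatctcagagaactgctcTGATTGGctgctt
H2-Ob: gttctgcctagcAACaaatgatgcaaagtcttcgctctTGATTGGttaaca
H2-Eb2: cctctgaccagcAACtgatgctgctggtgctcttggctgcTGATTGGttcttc

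These stretches lie at chr17:34287861-34287914 on the minus strand for H2-Aa, and on the plus strand at chr17:34305766-34305818 for H2-Eb1, chr17:34153087-34153140 for H2-DMb1, chr17:34145116-34145169 for H2-DMb2, chr17:34092293-34092346 for H2-Oa, chr17:34238808-34238858 for H2-Ob and chr17:34325533-34325585 for H2-Eb2, a beta chain gene outside the 10. The letters and their spacing were chosen after the sequences had been seen. TGATTGG alone occurs on the strand of the gene in 4.01% of the 32851 windows in the table and on either strand in 7.82%, and the spaced pair on the strand of the gene in 0.189% and on either strand in 0.46%. The pair is absent from both windows of H2-DMa, which was higher, and present at H2-DMb2 and H2-Oa, which did not pass. Its absence says only that these letters are not in the window, and a match of letters is a description and not a measured binding site.

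The 3 peptide-binding chain genes lie close together on chromosome 17 (GRCm38, GENCODE M21). H2-Aa (ENSMUSG00000036594, 34282744 to 34287823) and H2-Ab1 (ENSMUSG00000073421, 34257689 to 34269419) encode the alpha and beta chain of the I-A molecule. H2-Eb1 (ENSMUSG00000060586, 34305867 to 34316674) encodes the beta chain of I-E, and the alpha chain of I-E comes from a locus annotated as a pseudogene in the reference strain, H2-Ea-ps. H2-Aa measured 4946, 4869 and 3607 CPM in Cre- control libraries 1, 2 and 3, and 8948, 10355 and 6664 CPM in PTEC DN RAR libraries 1, 2 and 3. Every PTEC DN RAR library was above every control, with library 3 the lowest of its group in both genotypes. The rise was 1.93-fold, a log2 fold change of 0.95 (SE 0.19, adjusted p = 0.0052, edgeR).

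H2-Ab1 followed the same order of libraries, with 3729, 3424 and 2744 CPM in Cre- control mice and 6805, 7723 and 5025 CPM in PTEC DN RAR mice. Its groups did not overlap, and its log2 fold change was 0.98 (SE 0.18, adjusted p = 0.0037, edgeR). H2-Eb1 had the largest change of the 10 genes, from 4058, 4269 and 3101 CPM to 8490, 9927 and 6056 CPM. The I-E beta chain transcript was thus 2.14-fold higher, a log2 fold change of 1.10 (SE 0.20, adjusted p = 0.0034, edgeR). Whether any I-E molecule was made was not measured here. H2-Ea-ps had 14, 0 and 9 counts in Cre- control libraries and 0, 1 and 2 counts in PTEC DN RAR libraries, at most 0.359 CPM, and was under the filter. The groups overlapped, and its mean was lower in the PTEC DN RAR group, where those of H2-Aa, H2-Ab1 and H2-Eb1 were higher. In edgeR it was called lower with no filter and without Cre- control 2, the control library with a count of 0. The related beta chain gene H2-Eb2 measured 2.38, 2.38 and 1.87 CPM in Cre- control mice and 5.52, 4.90 and 2.75 CPM in PTEC DN RAR mice, a log2 fold change of 0.99 (SE 0.28, adjusted p = 0.0221, edgeR). At these low counts the H2-Eb2 call was lost when Cre- control 2, Cre- control 3, PTEC DN RAR 1 or PTEC DN RAR 2 was left out.

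Cd74 (ENSMUSG00000024610, chromosome 18 from 60803848 to 60812652) encodes the invariant chain, which also serves as a receptor subunit for the cytokine MIF. It measured 10584, 10822 and 8044 CPM in Cre- control libraries 1, 2 and 3, and 19506, 23759 and 15533 CPM in PTEC DN RAR libraries 1, 2 and 3. The groups were well apart, with the lowest PTEC DN RAR library above the highest control. The change was 2.00-fold (log2 fold change 1.00, SE 0.19, adjusted p = 0.0041, edgeR). By CPM, Cd74 ranked between 6 and 8 among all genes in Cre- control libraries and 3 or 4 in PTEC DN RAR libraries. Of the other genes that act with CD74 at the cell surface, Ddt, a ligand related to MIF, was higher (log2 fold change 0.62, SE 0.12, adjusted p = 0.0043, edgeR). Cd44, which encodes the signaling partner of CD74, fell by 0.76 on the log2 scale (SE 0.09, adjusted p = 0.0005, edgeR). Mif itself did not pass, at 18.0, 14.1 and 14.9 CPM against 13.4, 11.6 and 15.1 CPM.

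H2-DM is the peptide editor, made of an alpha chain from H2-DMa (ENSMUSG00000037649, chromosome 17 from 34119541 to 34139101) and a beta chain from either H2-DMb1 (ENSMUSG00000079547, 34153072 to 34160230) or H2-DMb2 (ENSMUSG00000037548, 34143307 to 34151555). H2-DMa measured 428, 373 and 362 CPM in Cre- control libraries and 583, 554 and 480.1 CPM in PTEC DN RAR libraries. Its groups did not overlap, and its log2 fold change was 0.48 (SE 0.11, adjusted p = 0.0088, edgeR). Without Cre- control 3 the H2-DMa call was lost, at a log2 fold change of 0.38 (adjusted p = 0.0584, edgeR). H2-DMb1 measured 269, 250.2 and 213 CPM against 391, 388 and 305 CPM, a log2 fold change of 0.57 (SE 0.13, adjusted p = 0.0083, edgeR). H2-DMb2, at 28.1, 22.3 and 21.8 CPM in Cre- control libraries and 26.9, 26.4 and 19.8 CPM in PTEC DN RAR libraries, overlapped between genotypes (log2 fold change 0.02, SE 0.15, adjusted p = 0.94, edgeR).

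The counts of the paired beta chain genes rest on the part of each transcript in which they differ. Their coding sequences of 783 bases each are 95.9% identical, with 221 bases in the longest identical run. The opening 90 coding bases are shown because they differ at 1 base, in capitals, so that a read lying to 1 side of it fits both genes.
H2-DMb1: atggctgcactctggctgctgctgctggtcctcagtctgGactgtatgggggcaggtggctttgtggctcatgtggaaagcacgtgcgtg
H2-DMb2: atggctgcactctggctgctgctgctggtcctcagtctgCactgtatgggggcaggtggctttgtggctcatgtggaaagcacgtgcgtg

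Of the 50-base stretches of the main transcript, 27.23% of those of H2-DMb1 and 32.8% of those of H2-DMb2 also occur in other genes. In H2-DMb1 these are only the 369 that it shares with H2-DMb2. In H2-DMb2 they are 451, and 297 genes hold at least 1 of them. Reads that align to more than 1 place were left out of the counts. How many reads this took from either gene was not measured here. No such stretch was found in H2-Aa, H2-Ab1, H2-Eb1, H2-DMa, H2-Ob or Cd74. In H2-Oa 21.66% of the stretches occur in the antisense gene BC051537. H2-DMa shares 10.4% of its exon bases with Brd2 and Ciita 3.5% with Dexi, each on the opposite strand. The counting is not stated to use strand, so reads from these overlaps cannot be assigned with certainty.

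H2-O, which restrains H2-DM and is best known from B cells, is made of H2-Oa (ENSMUSG00000024334, chromosome 17 from 34092340 to 34095234) and H2-Ob (ENSMUSG00000041538, 34238903 to 34254414). H2-Oa measured 17.0, 14.2 and 11.5 CPM in Cre- control libraries and 20.7, 16.8 and 14.9 CPM in PTEC DN RAR libraries. The groups overlapped, and H2-Oa did not pass (log2 fold change 0.29, SE 0.18, adjusted p = 0.22, edgeR). Its log2 fold change was 0.11 without Cre- control 3, 0.15 without PTEC DN RAR 1 and 0.43 without Cre- control 1, and it passed in none of the 6 fits that left out a library. H2-Ob measured 16.4, 19.2 and 14.0 CPM against 29.8, 32.6 and 20.0 CPM, with no overlap, although PTEC DN RAR 3 stood only just above Cre- control 2. Its log2 fold change was 0.73 (SE 0.19, adjusted p = 0.0156, edgeR). The H2-Ob call was lost when any of 4 libraries was left out (Cre- control 1 or 3, PTEC DN RAR 1 or 2), with adjusted p values up to 0.0769 and log2 fold changes of at least 0.58 (edgeR).

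Ciita (ENSMUSG00000022504, chromosome 16 from 10480059 to 10528418) encodes the class II coactivator. It measured 184, 228 and 181 CPM in Cre- control libraries and 358, 361 and 290.3 CPM in PTEC DN RAR libraries. The groups were apart, and the log2 fold change was 0.77 (SE 0.13, adjusted p = 0.0021, edgeR), the smallest adjusted p of the 10 genes. Of 7 genes for the factors that hold CIITA at promoters, 0 were higher and 2 lower, with a median log2 fold change of -0.12, and 1 was higher and 0 lower under pan-leukocyte scaling, which sets libraries equal in genes shared by all leukocytes. Nfya, an NF-Y subunit, fell by 0.34 on the log2 scale (SE 0.08, adjusted p = 0.0086, edgeR) and Creb1 by 0.47 (SE 0.13, adjusted p = 0.0214, edgeR). Nfya passed in each of the 6 fits that left out a library, and the call of Creb1 was lost in 3 of them (without Cre- control 3, PTEC DN RAR 1 or PTEC DN RAR 3). The RFX subunit genes Rfx5, Rfxap and Rfxank did not pass, with log2 fold changes of 0.17, -0.12 and 0.06. Under pan-leukocyte scaling Nfya and Creb1 no longer passed, and Rfx5 passed as higher (log2 fold change 0.36, adjusted p = 0.041, edgeR).

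Of 12 genes that induce Ciita, mostly of the interferon-γ pathway, 11 passed the filter, 0 were higher and 3 lower, with a median log2 fold change of -0.20. The lower genes were Jak1, Jak2 and Irf2. Jak1 and Jak2, the kinases of the interferon-γ receptor, each fell by 0.27 on the log2 scale (SE 0.09 each, adjusted p = 0.0375 and 0.0426, edgeR). Irf2 fell by 0.26 (SE 0.08, adjusted p = 0.0354, edgeR). Each of the 3 calls was lost under pan-leukocyte scaling and in at least 4 of the 6 fits that left out a library. Ifng was under the filter, with at most 0.0478 CPM in any library and no read in PTEC DN RAR 3, where a count of 0 allows up to 3 reads.

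Within a library, the ratio of 2 genes does not depend on how libraries are scaled. The log2 ratio of H2-Aa over H2-Ab1 was 0.44 ± 0.06 in Cre- control mice and 0.41 ± 0.01 in the PTEC DN RAR group (SD, n = 3 each, exact permutation test, p = 0.7), and that of Cd74 over H2-Ab1 was 1.57 ± 0.08 and 1.59 ± 0.06 (exact permutation test, p = 0.9). Over the 6 libraries the first of these ratios ranged from 0.39 to 0.51 and the second from 1.51 to 1.66. The ratio of H2-Eb1 over H2-Ab1 was 0.21 ± 0.10 and 0.32 ± 0.05 (exact permutation test, p = 0.2). The log2 ratio of H2-DMa over H2-Ab1 was -3.12, -3.20 and -2.92 in Cre- control libraries and -3.54, -3.80 and -3.39 in PTEC DN RAR libraries, with no overlap. The difference was -0.50 (exact permutation test, two-sided, p = 0.1, which is the least that 3 libraries against 3 can give). Within H2-DM, the log2 ratio of H2-DMb2 over H2-DMb1 was -3.26, -3.49 and -3.29 against -3.86, -3.88 and -3.94, again with no overlap and a difference of -0.55 (exact permutation test, p = 0.1). The proportion of H2-DMb1 to H2-DMa differed by 0.09 (exact permutation test, p = 0.3).

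**Figure D2:**
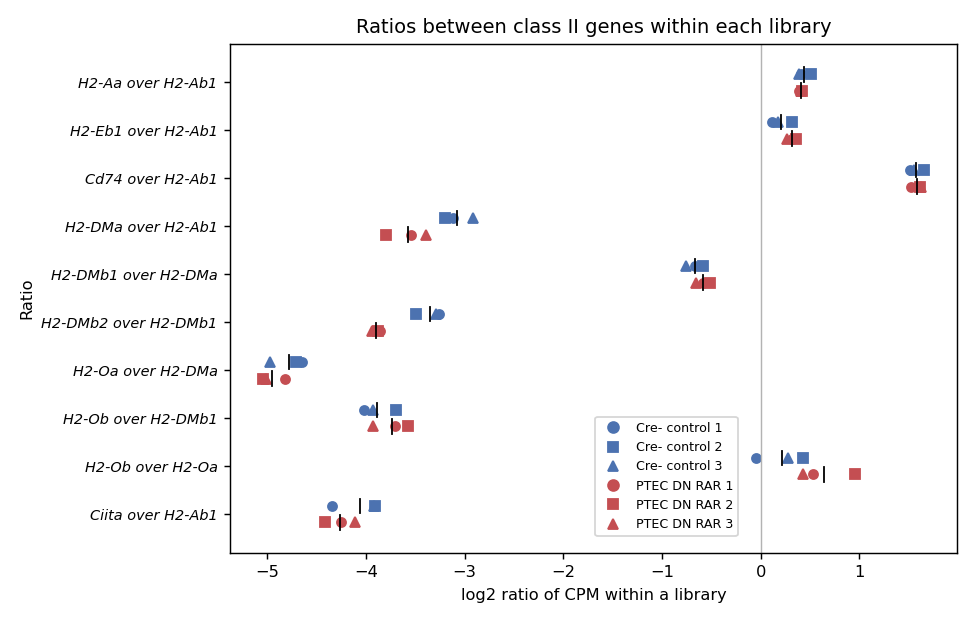
Log2 ratio of CPM between 2 genes within each library for 10 ratios, with blue symbols for Cre- control mice, red symbols for PTEC DN RAR mice and a black line at each group mean (n = 3). The groups separate for H2-DMa over H2-Ab1 and for H2-DMb2 over H2-DMb1 and overlap for the other 8 ratios.

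The groups overlapped for the remaining 4 ratios too, whose differences were -0.18 for H2-Oa over H2-DMa, 0.15 for H2-Ob over H2-DMb1, 0.42 for H2-Ob over H2-Oa and -0.20 for Ciita over H2-Ab1, with exact permutation p values from 0.2 to 0.4. When 1 library was left out, these 4 differences ranged from -0.28 to -0.11, from 0.07 to 0.25, from 0.26 to 0.52 and from -0.34 to -0.12. Those of H2-Eb1 over H2-Ab1 and of H2-DMb1 over H2-DMa ranged from 0.07 to 0.17 and from 0.04 to 0.14. Over the 10 ratios, the smallest Benjamini-Hochberg adjusted p of the exact permutation tests was 0.4.

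Levels between genes were compared per kilobase of the main transcript. In Cre- control mice Cd74 had 6962 CPM per kb, H2-Aa 3967, H2-Ab1 2722 and H2-Eb1 2282. H2-DMa followed with 234 CPM per kb, H2-DMb1 with 174, Ciita with 32.8, H2-DMb2 with 16.9, H2-Oa with 13.1 and H2-Ob with 6.19. The order of the group means was the same in PTEC DN RAR mice, from 13900 CPM per kb for Cd74 down to 10.3 for H2-Ob. The libraries of neighbouring genes in this order overlapped for H2-Ab1 and H2-Eb1 and for H2-DMb2 and H2-Oa in both genotypes, and for H2-Aa and H2-Ab1 in PTEC DN RAR mice.

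Of the 10 genes, 8 lie within 252.3 kb of chromosome 17, between H2-Oa and H2-Ea-ps, where genes of MHC class I processing are placed among them. The region holds 23 annotated genes, of which 7 besides the members passed the filter. Of these 7, 1 was higher (H2-Eb2) and 0 were lower, with a median log2 fold change of 0.07. Tap1 and Tap2, which carry peptides to class I molecules, and Psmb8 and Psmb9, subunits of the immunoproteasome, sit between H2-DMb1 and H2-Ob and did not pass. Tap1 measured 307, 279.6 and 243 CPM in Cre- control libraries and 235, 258 and 274 CPM in PTEC DN RAR libraries (log2 fold change -0.11, SE 0.11, adjusted p = 0.44, edgeR). Tap2 had a log2 fold change of 0.14, Psmb8 of -0.17 and Psmb9 of -0.23. Under pan-leukocyte scaling Tap2 passed as higher (log2 fold change 0.33, adjusted p = 0.0424, edgeR), and the values of Tap1 and Psmb8 turned positive. These genes were chosen by position, after the values of the members had been seen.

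**Figure D3:**
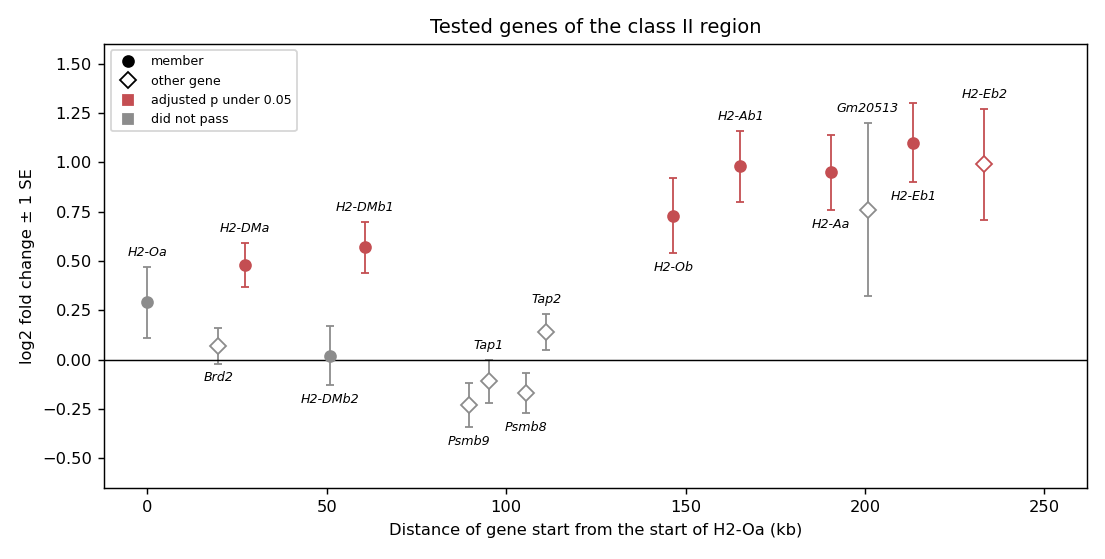
Log2 fold change (vertical axis, bars ± 1 SE) of the 15 tested genes of the class II region against the distance of each gene's start from that of H2-Oa in kb. Filled circles are members, open diamonds other genes, red marks an adjusted p under 0.05, and grey did not pass. The class I processing genes from Psmb9 to Tap2 lie between -0.23 and 0.14 under TMM scaling and did not pass, and they sit between the H2-DM genes and the block from H2-Ob to H2-Eb2.

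Among the other genes of the pathway more fell than rose under TMM scaling. Of 42 genes in 7 lists, 40 passed the filter, 4 were higher and 14 lower, with a median log2 fold change of -0.18. Under pan-leukocyte scaling the split was 7 higher and 7 lower, while the split over all tested genes moved from 3645 higher and 2648 lower to 4556 and 802. Of 9 genes of endosomal processing, 0 were higher and 5 lower, with a median log2 fold change of -0.62. Ctsd, which encodes cathepsin D, measured 5712, 3962 and 5479 CPM in Cre- control libraries and 2456, 1778 and 2532 CPM in PTEC DN RAR libraries. Its log2 fold change was -1.16 (SE 0.18, adjusted p = 0.0019, edgeR). Ctsl, for cathepsin L, fell by 1.14 on the log2 scale (SE 0.13, adjusted p = 0.0004, edgeR) and Ifi30, for the thiol reductase that opens disulfide bonds of antigens, by 0.67 (SE 0.13, adjusted p = 0.0045, edgeR). Ctsb and Lgmn were also lower, and all 5 calls held under pan-leukocyte scaling and in each of the 6 fits that left out a library. Ctss, for cathepsin S, which trims the invariant chain in macrophages and dendritic cells, did not pass (log2 fold change -0.21, SE 0.11, adjusted p = 0.17, edgeR).

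**Figure D4:**
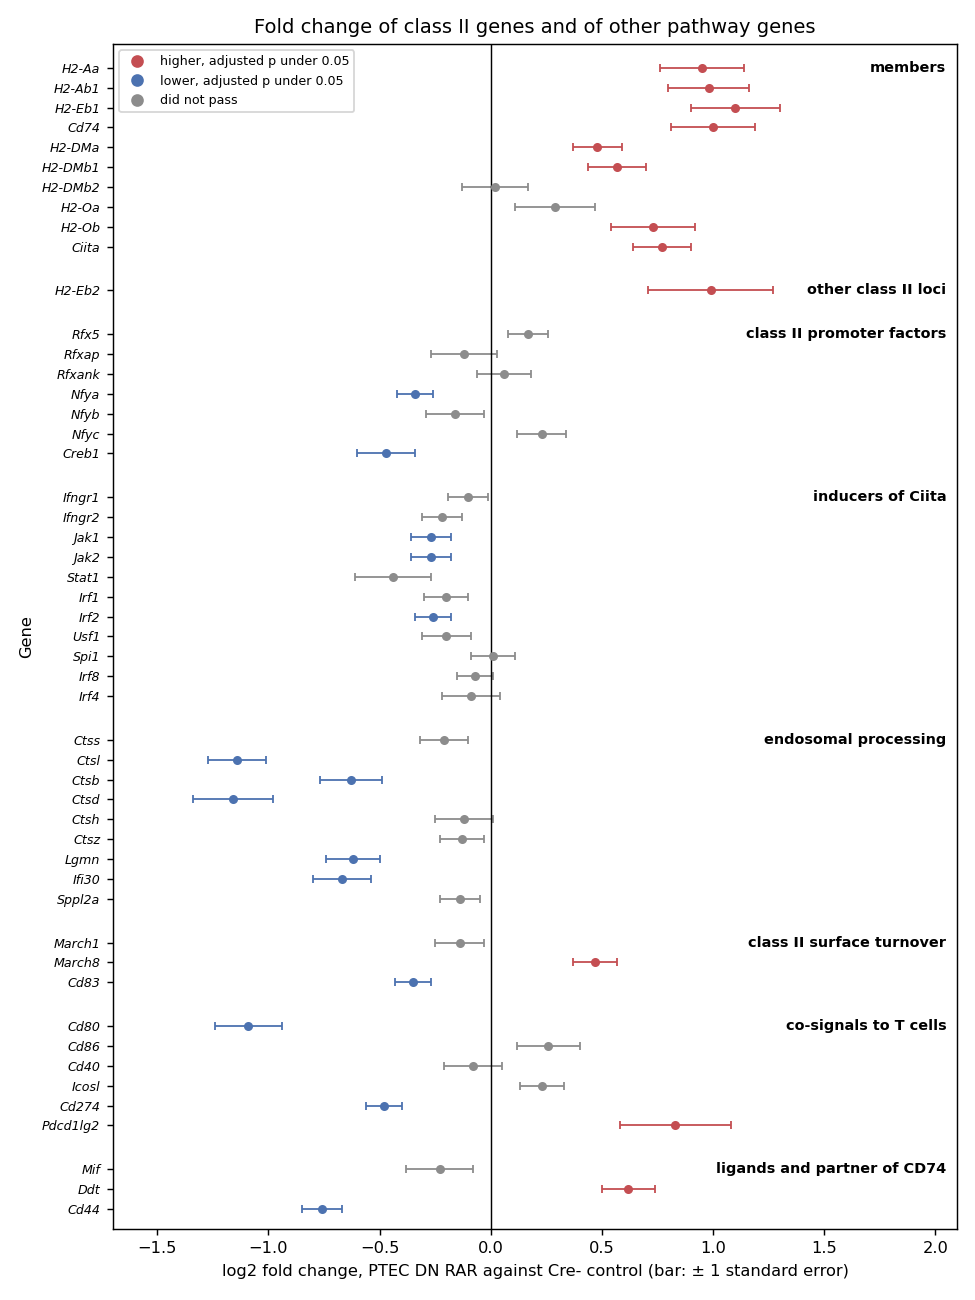
Log2 fold change in PTEC DN RAR against Cre- control mice (horizontal axis, bars ± 1 SE) of the 10 members and of the 40 tested genes in 7 pathway lists. Red points were higher and blue points lower at an adjusted p under 0.05, and grey points did not pass. The 8 called members lie to the right of 0, and every called gene of endosomal processing lies to its left.

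MARCH1 and MARCH8 are ubiquitin ligases that take class II off the cell surface, and CD83 opposes MARCH1. March8 measured 66.5, 62.5 and 75.6 CPM in Cre- control libraries and 90.1, 92.4 and 100.2 CPM in PTEC DN RAR libraries (log2 fold change 0.47, SE 0.10, adjusted p = 0.0057, edgeR). Cd83 fell by 0.35 on the log2 scale (SE 0.08, adjusted p = 0.0123, edgeR), a call lost under pan-leukocyte scaling (log2 fold change -0.16, adjusted p = 0.22). March1 did not pass (log2 fold change -0.14). Among 6 genes for the surface signals that accompany class II toward T cells, 1 was higher and 2 were lower under TMM scaling, and 3 were higher and 1 lower under pan-leukocyte scaling. With the latter Cd86, for a ligand of CD28, passed as higher (log2 fold change 0.43 against 0.26 under TMM, adjusted p = 0.0288, edgeR), as did Icosl, for the ligand of ICOS (0.41 against 0.23, adjusted p = 0.0185, edgeR). Cd80 measured 11.5, 12.8 and 15.1 CPM in Cre- control libraries and 6.69, 5.51 and 6.29 CPM in PTEC DN RAR libraries. Cd80, which encodes a ligand of CD28 on T cells, fell by 1.09 on the log2 scale (SE 0.15, adjusted p = 0.0011, edgeR). Cd274, for PD-L1, fell by 0.48 (SE 0.08, adjusted p = 0.0025, edgeR), a call lost under pan-leukocyte scaling (adjusted p = 0.0841), and Pdcd1lg2, for PD-L2, was higher by 0.83 (SE 0.25, adjusted p = 0.0294, edgeR) at no more than 2.60 CPM. The call of Pdcd1lg2 was lost in 4 of the 6 fits that left out a library.

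The members also varied together among libraries of 1 genotype. After each gene's log2 CPM had been centred on the mean of its genotype, the deviations of H2-Aa, H2-Ab1, H2-Eb1 and Cd74 had pairwise Pearson r from 0.97 to 0.99 over the 6 libraries, and 0 of the 45 pairs of members had a negative r. Library 3 was the lowest of both genotypes for each of these 4 genes, with H2-Ab1 0.25 below the mean of its group in Cre- control 3 and 0.35 below in PTEC DN RAR 3 on the log2 scale. H2-DMb2 shared this pattern with H2-Ab1 (r of 0.88) although it did not pass the test between genotypes. All points share the scaling of their library, and 6 libraries centred on 2 means leave little freedom, so these values are a description. Among 8982 other genes with a mean of at least 10 CPM, those with deviations most like H2-Ab1 included Kcnn4, Atxn7l1, Atg4b and Prrc2b, with r from 0.990 to 0.998. Of these 4 genes only Prrc2b passed the test between genotypes (log2 fold change 0.49, SE 0.08, adjusted p = 0.0021, edgeR).

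The libraries held between 29318041 and 46517005 gene counts, and the lowest count of a member in any library was 363, for H2-Oa in Cre- control 3. Rara, the gene whose truncated form is the transgene, did not pass (45.4, 35.3 and 45.1 CPM against 30.7, 31.5 and 37.6 CPM, adjusted p = 0.0617, edgeR), and no separate value for the transgene was used here. Itgam, the gene for CD11B, was abundant in every library at 1737, 1959 and 1995 CPM in Cre- control mice and 1366, 1303 and 980.3 CPM in PTEC DN RAR mice, and fell by 0.64 on the log2 scale (SE 0.14, adjusted p = 0.0072, edgeR). The mitochondrial share of counts was also higher in PTEC DN RAR libraries (10.38% to 12.08%) than in Cre- control libraries (5.03% to 8.77%), and its part in the class II result was not tested.

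Markers of several cell types are given beside the class II genes, and their part in the class II result was not tested. The counts in these lists stand beside 23.6% of all tested genes that were higher and 17.2% that were lower. Of 10 dendritic cell markers, all of which passed the filter and were detected in every library, 4 were higher and 1 lower. Their summed level ranged from 169.7 to 230.3 CPM in Cre- control libraries and from 209 to 269.6 CPM in PTEC DN RAR libraries. The defining markers Flt3 (22.6, 16.5 and 11.6 CPM against 17.8, 16.4 and 14.2 CPM) and Zbtb46 (5.10, 5.94 and 3.67 CPM against 5.85, 5.26 and 5.28 CPM) did not pass. Xcr1 and Clec9a, which mark the dendritic cells that cross-present antigen, were higher, with log2 fold changes of 2.46 (SE 0.46, adjusted p = 0.0040, edgeR) and 1.31 (SE 0.28, adjusted p = 0.0065, edgeR). The other higher markers were Batf3 and Dpp4, with log2 fold changes of 0.71 (adjusted p = 0.0102, edgeR) and 0.60 (adjusted p = 0.0071, edgeR). The lower one was Ccr7, for the receptor that leads dendritic cells to lymph nodes, which measured 41.7, 23.0 and 31.0 CPM in Cre- control libraries and 18.1, 19.2 and 20.0 CPM in PTEC DN RAR libraries, with no overlap (log2 fold change -0.74, SE 0.19, adjusted p = 0.0144, edgeR).

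Of 8 B cell markers, 5 passed the filter, 2 were higher and 0 lower, and their summed level ranged from 38.2 to 47.4 CPM and from 50.7 to 78.7 CPM. Pax5, Fcer2a and Blk were under the filter, and Blk was at 0 in Cre- control 1 and 3. Cd79a, which encodes a chain of the B cell receptor complex, measured 0.282, 0.570 and 0.253 CPM in Cre- control libraries and 1.79, 1.23 and 0.339 CPM in PTEC DN RAR libraries. It did not pass. The 2 called genes, named after their values had been seen, made up most of the sum. Cd79b, for the other chain of that complex, measured 28.1, 28.9 and 22.8 CPM against 43.8, 36.9 and 31.8 CPM (log2 fold change 0.49, SE 0.14, adjusted p = 0.0221, edgeR), and Cd22, for an inhibitory receptor of B cells, measured 18.2, 13.7 and 14.6 CPM against 28.6, 30.7 and 17.4 CPM (log2 fold change 0.72, SE 0.21, adjusted p = 0.0258, edgeR).

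Of 8 resident macrophage markers, 1 was higher (Cd81, log2 fold change 0.97) and 2 lower (Trem2, -0.87, and Mertk, -0.34). The mean log2 CPM of the 8 was 9.59 ± 0.06 in Cre- control and 9.65 ± 0.17 in the PTEC DN RAR group (SD, n = 3 each, exact permutation test, p = 0.7). The difference was 0.05 under TMM scaling with overlap between genotypes, ranged from 0.00049 to 0.15 when 1 library was left out (without PTEC DN RAR 1 and without PTEC DN RAR 3), and was 0.23 with no overlap under pan-leukocyte scaling (exact permutation test, p = 0.1). Summed levels of these markers ranged from 10217 to 11302 CPM and from 9737 to 12663 CPM. By flow cytometry, the paper found more resident macrophages with high MHC class II protein in PTEC DN RAR mice after injury. That is a measure of cells and not of RNA. Infiltrating monocyte markers were lower in 7 of 8 genes, with summed levels from 3161 to 3634 CPM and from 1492 to 1572 CPM. Neutrophil markers were lower in 6 of 8, from 615 to 1089 CPM and from 331 to 477 CPM. Of 8 T and NK cell markers, among which Cd3e was under the filter, 2 were higher (Cd4 and Trac), from 46.3 to 76.7 CPM and from 86.4 to 110.3 CPM in sum. Most of that sum was Cd4, at 41.6, 69.4 and 54.6 CPM in Cre- control libraries and 94.0, 82.5 and 107.3 CPM in PTEC DN RAR libraries. The mean log2 CPM of the list overlapped between genotypes (0.04 ± 0.20 against 0.34 ± 0.63, SD, n = 3 each, exact permutation test, p = 0.7). The log2 fold changes of Gzma, Ncr1 and Klrb1c, which did not pass, were -1.12, -0.34 and -0.36. Those of Cd3g and Cd8a, which also did not pass, were 1.33 and 0.67.

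Markers of nonimmune kidney cells were higher in all of the 10 proximal tubule, 4 thick ascending limb and 6 endothelium genes tested. Their summed levels ranged from 599 to 761 CPM against 1946 to 2986 CPM for proximal tubule, from 1019.6 to 1434 CPM against 3538 to 6876 CPM for thick ascending limb, and from 69.3 to 102 CPM against 194 to 234 CPM for endothelium. Injured proximal tubule markers were split, with 1 of 6 higher (Vcam1) and 2 lower (Spp1 and Lcn2). Their summed levels ranged from 2053 to 2807 CPM against 1201 to 1917 CPM. Most of that sum was Spp1. It measured 2510, 1851 and 2639 CPM in Cre- control libraries and 1393, 897 and 1745 CPM in PTEC DN RAR libraries. The paper places Lcn2 in injured thick ascending limb, collecting duct and distal tubules, and not in PTECs. Havcr1, Sox9 and Krt20 did not pass, with log2 fold changes of -0.29, 0.73 and -0.24. In mean log2 CPM, the dendritic cell, monocyte, neutrophil, proximal tubule, thick ascending limb, endothelium and pan-leukocyte reference lists did not overlap between genotypes (exact permutation test, p = 0.1 each), and the injured tubule and B cell lists overlapped (p = 0.3 each, exact permutation test). The pan-leukocyte mean was 8.95 ± 0.04 for Cre- control and 8.77 ± 0.12 for the PTEC DN RAR group (SD over 3 libraries each). Of 20 pan-leukocyte reference genes 19 passed the filter, 0 were higher and 5 lower, with a median log2 fold change of -0.09, and with scaling on those 19 genes the class II fold changes were larger, at 1.17 for Cd74 and 0.94 for Ciita on the log2 scale.

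**Figure D5:**
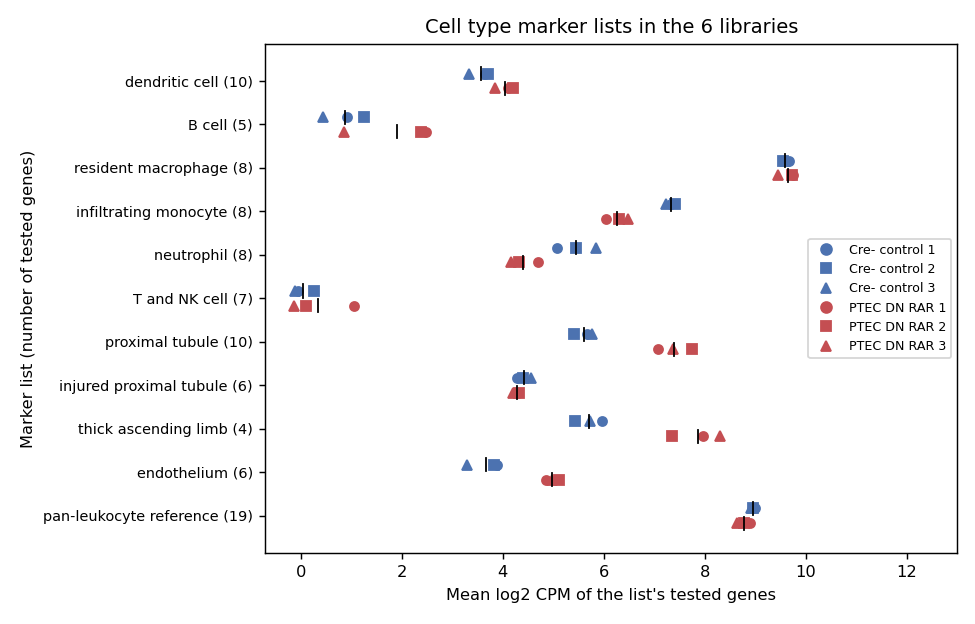
Mean log2 CPM of the tested genes of each marker list in every library, with blue symbols for Cre- control mice, red symbols for PTEC DN RAR mice and a black line at each group mean (n = 3). Proximal tubule, thick ascending limb, endothelium and dendritic cell lists lie higher in all 3 red libraries, monocyte and neutrophil lists lower, and the resident macrophage list overlaps under TMM scaling, but not under pan-leukocyte scaling, which is not drawn.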

How the data were processed

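The authors deposited raw counts of reads on each Ensembl gene, without normalization. Per the labels, polyA-selected libraries were made from CD11B+ cells, and the submitters' processing notes name GRCm38, STAR 2.5.0a, HTSeq 0.6.1, edgeR and limma. Reads aligned to more than 1 place (42.93% to 47.75% of all lines counted) and ambiguous reads are outside the gene counts, which can lower genes with near-identical copies. After 9 repeated identifiers had been collapsed, 46603 genes remained. In edgeR 4.0.16 (R 4.3.3), low genes were removed by filterByExpr, libraries were scaled by TMM to give CPM, and genotype was tested by glmQLFit (robust) and glmQLFTest. Adjusted p values are Benjamini-Hochberg values over the 15440 genes left, with a threshold of 0.05. Log2 CPM used a prior count of 2. A standard error is the log2 fold change divided by the square root of F. Ratios and marker means were compared by two-sided exact permutation tests over the 6 libraries. No library repeated another of its genotype, as these differed by a chi-square of at least 27.1 per degree of freedom. Libraries of different genotypes were not compared in this way. P values measure the spread between these libraries.

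The members, the pathway lists and the marker lists were chosen with earlier results of these data known. Named genes are all members, every gene of a pathway list of 5 or fewer, otherwise the called genes with the 3 largest rises and 3 largest falls, Flt3, Zbtb46 and 2 B cell markers, the 5 genes most like H2-Ab1, and Rara, of which 2 genes are not reported here. Other genes were named after their values had been seen. Of the members, 7 matched the RefSeq promoter windows and H2-Ab1, Cd74 and Ciita are named only. Coordinates are of GENCODE M21. Alternatives used DESeq2 1.42.0, limma-voom 3.58.1, other filters and scalings, a replicate block, a prior count of 0.25 and leaving out each library. The fits were tested on simulated data. There edgeR called 68 of 100 genes with a 2-fold change and 92 of 99 with a 4-fold change, with 12 false calls. A gene that did not pass can thus still differ between genotypes. Figures and tables used Python 3.11.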

Additional observations from a re-analysis of the deposited data

How the results depend on the processing

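The count of higher members was 8 of 10 with DESeq2, limma-voom, no filter, a filter of 10 counts in every library, library size alone and DESeq2 size factors, 9 with pan-leukocyte scaling, which added H2-Oa (log2 fold change 0.46, adjusted p = 0.0433, edgeR), and between 6 and 8 when a library was left out. No member was called lower in any of these fits. H2-Aa, H2-Ab1, H2-Eb1, Cd74, H2-DMb1 and Ciita passed in all 14 alternatives, with their largest adjusted p values, from 0.0161 to 0.0491 (edgeR), when Cre- control 3 was left out. H2-DMb2 changed sign with no filter (-0.01), DESeq2 size factors (-0.02), limma-voom (-0.0022) and DESeq2 (-0.02), and ranged from -0.10 to 0.14 without 1 library, never passing. Pathway genes called higher went from 4 to 7 with pan-leukocyte scaling and to between 2 and 4 without 1 library, being 2 without Cre- control 2, Cre- control 3, PTEC DN RAR 1 or PTEC DN RAR 2. Pathway genes called lower went from 14 to 7 with pan-leukocyte scaling, and all tested genes called lower from 2648 to 802, as that scaling moved the median log2 fold change over all tested genes from 0.04 to 0.21. The injured proximal tubule mean changed sign with that scaling (0.04). The cause of these changes was not tested. Without 1 library, the ratio difference of H2-Aa over H2-Ab1 ranged from -0.05 to 0.01 and that of Cd74 over H2-Ab1 from -0.02 to 0.06, and the difference in T and NK cell markers from -0.06, without PTEC DN RAR 1, to 0.54.

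The replicate numbers are shared across genotypes but come from different mice. The deviations of same-numbered libraries correlated at -0.01, 0.21 and 0.03, and the 0.21 was the highest over all pairings. Cre- control 1 correlated best with PTEC DN RAR 3 (0.15). Values centred on 3 libraries per genotype are tied to one another, so these correlations cannot show that pairing is absent. No label states a pairing, so the libraries were not treated as pairs. With the replicate block 8 members were higher and 0 lower, 3612 of all genes were higher and 2644 lower, and no call of a member changed. At these depths even H2-Oa had at least 363 counts in a library, so the spread between libraries and not counting limits the members. With 3 libraries against 3 the exact tests cannot go below 0.1.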
